A study of Arabidopsis thaliana with 31 samples.

Results

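The genes described here are those whose poly(A) tails began very close to the stop codon in wild-type Arabidopsis seedlings. They were chosen by measured values: for each gene, the protein-coding transcript with the most reads was taken, at least 20 reads on the plus strand of that transcript were required, and the median 3′ end of those reads had to lie 0 to 110 nt after the last base of the stop codon. This distance is called the used 3′-UTR length. Of 7993 genes with enough reads, 861 met the rule (10.8%, 95% Clopper-Pearson interval 10.1 to 11.5%), and these are called the members. The lengths therefore describe the members and were not tested.

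The series holds 31 samples of a study of the poly(A)-binding proteins AtPAB2, AtPAB4 and AtPAB8, and the values below come from a single one of them, made by poly(A)-seq from Col, the wild type. This library came from whole 2-week-old seedlings grown on Murashige and Skoog plates with sucrose at 23 °C, with 16 h of light and 8 h of darkness, without a mutation, transgene or drug. RNA was partially cut with RNase T1, which cleaves after G, bound to oligo(dT) beads and ligated to an adaptor at the end of the tail, so that each read ran from the last part of the mRNA into the tail. No value below has a replicate error, because the library was the only sample of its kind, and the intervals given cover counting error only.

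The 3′-UTR is the part of an mRNA between the stop codon and the poly(A) tail. Its end is set when the pre-mRNA is cut and polyadenylated, and in plants this site is guided by loosely conserved elements: a U-rich or UG-rich stretch upstream, an A-rich element of which AATAAA is the best known form, and U-rich sequence around the cut. The 3′-UTR carries sites for RNA-binding proteins and small RNAs, and it separates the terminating ribosome from the poly(A)-binding proteins on the tail.

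The shortest members are shown first as sequence, because in them only a few bases separated the stop codon from the tail. They are the 12 shortest without AT5G54980, whose most used end lay upstream of the stop codon. Each line runs 5′ to 3′ from the stop codon, in capitals, to the last base of the most used 3′ end, on the TAIR10.1 assembly.
AT4G15690, chr4:8934750-8934756, plus strand: TAActtc
AT3G45210, chr3:16557477-16557484, minus strand: TAAttttt
AT1G17620, chr1:6063105-6063114, plus strand: TAAatatagt
AT4G01935, chr4:842226-842239, plus strand: TAAtgtttttacat
AT5G43560, chr5:17505524-17505537, plus strand: TGAggtttgggttt
ALS3, chr2:15670170-15670186, plus strand: TGAaacttttataaatc
AT2G27090, chr2:11567675-11567693, minus strand: TGAatttttttggtttctt
AT3G10930, chr3:3420212-3420230, minus strand: TAAtcagctttttaatttc
AT2G36430, chr2:15291555-15291573, plus strand: TAAatttttcaaccttttc
CDA1, chr2:8470579-8470600, minus strand: TAGagaatcatttaattatccg
PUB23, chr2:15083082-15083103, minus strand: TGAtgaaaacgaagaaaacaat
None of these 11 sequences ends in A. Across the members, the last base of the most used end was an A in 4 genes (0.465%) and the genome continued with an A in 783 (90.9%), against 0.168% and 89.7% of the other 7132 genes. The tail was trimmed from the reads as a run of A, so a templated A at the junction was counted as tail, and the true end can lie some bases further downstream wherever the genome continues with A.

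In 4 members the hexamer AATAAA lay across the stop codon and also within the 40 nt up to the most used end, and these are shown because a single stretch of bases there holds both a termination codon and a poly(A) signal motif. AATAAA is in capitals, and the stop codon was TAA in all 4.
AT2G25510, chr2:10857073-10857102, plus strand: ataataAATAAAacttgtatttccttttgt
AT2G36430, chr2:15291547-15291573, plus strand: atcaaaAATAAAtttttcaaccttttc
ARL, chr2:18238126-18238155, plus strand: ttatgtAATAAAcgtttctttaattgaaga
AT5G06280, chr5:1918360-1918389, minus strand: ttgtcaAATAAActttgatttggtgagaaa
At any used length, 23 members (2.67%) had AATAAA across the stop codon, beside 90 of the other genes (1.26%). In AT2G25510, AT2G36430 and AT5G06280 the motif began 4 nt before the last base of the stop codon, so the whole codon was inside it. In ARL, the ARGOS-like gene known for a role in cell expansion, the motif began 1 nt before that base and shared only the end of the codon. The most used ends followed at 22, 16, 33 and 34 nt after the stop codon, in the order of the lines. Only AT2G25510 among them was deeply covered, with 2016 reads, of which 50.8% ended at 22 nt and 15.3% at 24 nt.

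The used lengths of the members had a median of 88 nt, with quartiles of 71 and 101 nt and a range of 4 to 110 nt. The other 7132 genes had a median of 189 nt, with quartiles of 153 and 237 nt. The members formed the lower flank of a single broad distribution, and the histogram shows no gap at the limit. There were 27 members below 30 nt, 108 from 30 to 59 nt, 314 from 60 to 89 nt and 414 from 90 to 110 nt. The limit cut through dense ground, since 139 members lay within 5 nt below it and 152 genes within 5 nt above it. Just inside were AT1G03230, AT1G18490, AT1G43900 and ABA2, all at 110 nt, and just outside were INT4 and FOLT1 at 110.5 nt and AT1G01725 and PSAD-2 at 111 nt. At the other end, 60 genes had a median before the end of the stop codon, of which the nearest were AT5G50520 and AT5G50630 at -1 nt and AT1G28660 and ARAB-1 at -6 nt. The members held 302616 of the 1999646 reads on chosen transcripts (15.1%), with a median of 53 reads per gene and a range of 20 to 39109. Their share was similar at each depth: 11.4% of the genes with 20 to 49 reads, 10.9% with 50 to 99, 9.73% with 100 to 999 and 10.7% with 1000 or more. At low depth a median is loosely placed, and its 95% order-statistic interval lay wholly inside the limits in 662 of the 861 members (76.9%).

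**Figure D1:**
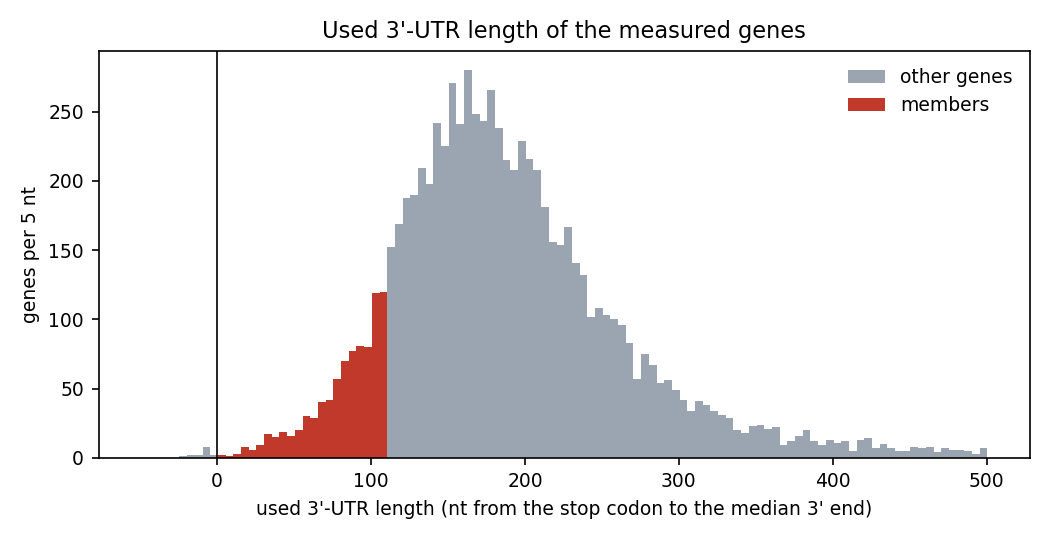
Number of genes per 5 nt of used 3′-UTR length, in nt from the last base of the stop codon to the median 3′ end, for the 861 members in red and the other genes in grey, drawn between -50 and 500 nt. The members are the lower flank of a single broad distribution, and the other genes have a median of 189 nt.

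The members with the most reads were nuclear genes of the photosynthetic apparatus. Of the 12 with the most reads, 11 encode subunits of photosystem I, photosystem II or its antenna, and these 12 held 58.1% of all members' reads, so shares of reads pooled over the members mostly describe them. PSAE-1, a stromal subunit of photosystem I where ferredoxin docks, had 39109 reads with a median end at 101 nt. In that gene 41% of the reads ended exactly at 101 nt, 13.0% at 106 nt and 12.6% at 100 nt, and 22.8% ended beyond 110 nt. The library was made from whole seedlings, so a count per gene does not tell apart the number of green cells and the mRNA per cell.

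Other photosystem I genes lay on both sides of the limit. Among those outside were PSAG at 158 nt with 39788 reads, more than PSAE-1, LHCA4 at 195 nt with 26487 reads, LHCA2 at 131 nt, LHCA3 at 138 nt, PSAL at 136 nt, PSAH-1 at 138 nt and PSAH2 at 149 nt. PSAK, a peripheral subunit, had 18354 reads and a median of 106 nt, with 22.4% of the reads at that end. PSAO, another peripheral subunit, had 14940 reads and a median of 86 nt, where 51.3% of its reads ended. In PSAO the next end lay downstream, at 105 nt with 15.5% of the reads, while in PSAK smaller ends lay on both sides, at 111 nt with 9.61% and at 99 nt with 9.49%. PSAN, a subunit on the lumen side, had 6989 reads and a median of 82 nt, but only 4.79% of its reads reached a mapping quality of 10 or more, and its other coding transcript held 6548 more reads with the same median. In PSAE-1, PSAK and PSAO at least 98.9% of the reads reached that quality. The PSAD pair straddled the limit, with PSAD-1 at 91 nt (3536 reads) and PSAD-2 at 111 nt (6391 reads). PSAE-2, the second copy of PSAE, had a median of 99 nt from 2663 reads, close to the 101 nt of PSAE-1.

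The last 30 bases before the most used end are printed for 5 of these deeply covered genes, because their ends rest on many reads. No base is in capitals, since none of the 5 holds AATAAA in this stretch.
PSAE-1, chr4:14202850-14202879, minus strand: accgcaaaagtttaccaattatttctcctc
PSAK, chr1:10723090-10723119, plus strand: atctaatggattttacaagtctttatgttt
PSAO, chr1:2640918-2640947, minus strand: attatcaatcaaaacaaagctttctttgct
LHCB3, chr5:22039414-22039443, plus strand: gatatgaacataacctttcttgttcctctc
NdhL, chr1:26688235-26688264, plus strand: gactgtatgtatatactctgcattcacatg
The absence of these letters from the window says nothing on which factors bind there.

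Several antenna genes of photosystem II were also members, but the most abundant of them were not. The 5 LHCB1 genes of the trimeric antenna had 0 members: LHB1B2 lay at 120 nt (32884 reads), CAB1 at 130 nt (25790 reads), LHB1B1 at 140 nt (2842 reads), CAB3 at 162 nt (27330 reads) and CAB2 at 171 nt (36891 reads). LHCB3, a chlorophyll a/b-binding protein of the trimeric antenna, had 17797 reads and a median of 60 nt, with 43.7% of the reads at 60 nt and 20.7% at 87 nt. The 3 LHCB2 genes, which encode trimer proteins together with LHCB1, all were members, at 94 nt for LHCB2.1 (9476 reads), 85 nt for LHCB2.2 (10748 reads) and 67 nt for LHCB2.3 (2062 reads). Their leading ends differed, at 105 nt in LHCB2.1 with 32.2% of the reads and at 73 nt in LHCB2.2 with 34.3%. The minor antenna proteins CP29, CP26 and CP24 link the trimers to the reaction centre. LHCB5, which encodes CP26, had 21233 reads and a median of 102 nt, although its leading end lay at 88 nt with 33.6% of the reads. LHCB4.1, for CP29, had 8711 reads, a median of 95 nt and 47.4% of its reads beyond 110 nt. LHCB6, for CP24, had 9031 reads and a median of 96 nt, but its most used end was at 141 nt with 18.28% of the reads, followed by 70 nt with 14.0%. Among the 264 members with 100 or more reads, LHCB6 was in the 5 with the most scattered ends, with 19.95% of the reads within 10 nt of the most used end. Family membership did not fix the length. LHCB4.2, another CP29 gene, had its leading end at 383 nt with 38.5% of its reads and was not a member. LHCB4.3, also for CP29, was a member at 97 nt, from only 67 reads. PSBX, a small subunit of photosystem II, had 11785 reads and 2 close ends, 42.7% of the reads at 93 nt and 40.8% at 86 nt.

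**Figure D2:**
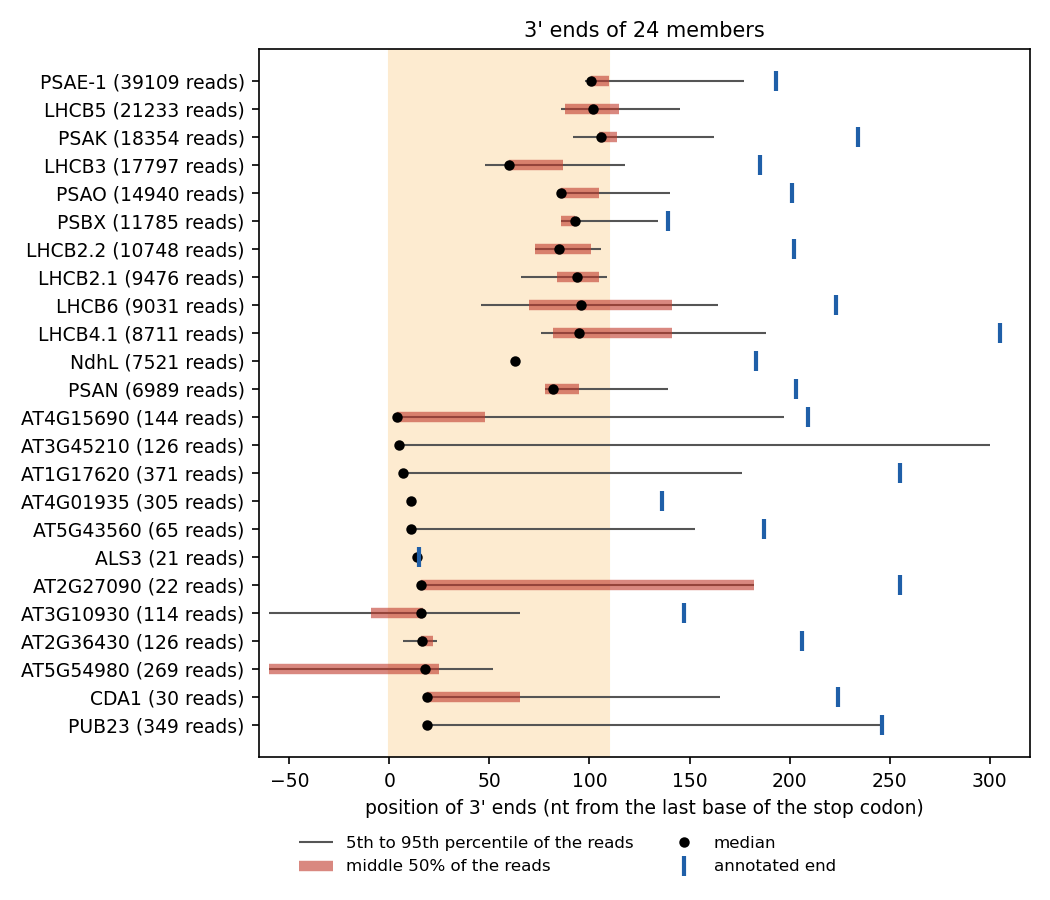
Positions of 3′ ends in nt from the last base of the stop codon, for the 12 members with the most reads (upper) and the 12 with the shortest used 3′-UTR (lower). Dots are medians, red bars the middle 50% of reads, thin lines the 5th to 95th percentile (drawn between -60 and 300 nt), blue ticks the annotated ends up to 320 nt, and the shaded band marks 0 to 110 nt. NdhL has nearly all reads at 63 nt, while LHCB6 and LHCB4.1 spread beyond the band.

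NdhL was the sharpest of the deeply covered members. It encodes a subunit of the chloroplast NDH complex, which carries electrons around photosystem I, and 95% of its 7521 reads (7146 reads) ended at 63 nt. The next ends, at 126 and 110 nt, held 0.731 and 0.652% of its reads. Of the other 17 measured genes named for this complex, looked up after their values were seen, 7 were members (41.2%, beside 10.8% of all genes), from NDF5 at 20 nt (53 reads) to PnsB5 at 109 nt (111 reads). Between them were PnsB1 at 78 nt, NdhT at 89 nt, PnsB3 at 92 nt, PnsL2 at 98 nt and PnsL1 at 101 nt.

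By words in the gene descriptions, 27 of 70 measured genes for photosystems and light harvesting were members (38.6%, interval 27.2 to 51.0%), against 10.8% of all measured genes. These words miss some genes, such as LHCA1, an antenna gene of photosystem I that was a member with 1203 reads, a median of 85 nt and 43.6% of the reads at 80 nt. The median used length of all 70 genes was 121.5 nt, and 13 of them lay 111 to 130 nt from the stop codon. The 27 members held 62.5% of all members' reads. They also had a shorter annotated 3′-UTR, with a median of 203 nt against 272 nt in the other 43 genes of the list. The shortest of them was TLP18.3, a lumen protein with a role in photosystem II repair, with a median of 34 nt from 913 reads. A further 244 reads of TLP18.3, listed antisense to an overlapping gene and not counted, had a median of 144 nt. PSBO2, a subunit of the oxygen-evolving complex, lay at 81 nt from 2411 reads.

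The other lists of the plot of group shares ranged from 0 to 19.2% members, again beside 10.8% of all genes. Ribosomal proteins had 8 members of 278 measured genes (2.88%, interval 1.25 to 5.59%). Among the 8 were PSRP5 at 110 nt (845 reads) and PRPL11 at 108 nt (459 reads), both genes of plastid ribosomal proteins, and RPL27AB at 102 nt (156 reads), a gene of a cytosolic one. The respiratory chain and ATP synthase list had 3 of 82 (3.66%), with AT3G62400, described as a cytochrome c oxidase subunit, at 48 nt from 379 reads. The words for histones matched 11 genes, all of H2A, H4 or the linker histone H1, and 0 members, an allowed share of up to 28.5%. They did not match GAMMA-H2AX, a histone variant gene at 110 nt. RNA binding, splicing and translation factors had 15 of 232 (6.47%), among them EMB2761, a threonyl-tRNA synthetase gene at 83 nt, and SCO1, a plastid elongation factor gene at 104 nt. Transcription factors had 22 of 314 (7.01%), with RHL41, a zinc finger gene of stress responses, at 107 nt with 72.9% of 439 reads at that end. Ubiquitin and proteasome genes had 12 of 185 (6.49%), with PAE2, a proteasome subunit, at 109 nt.

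Membrane transport genes had 19 of 220 (8.64%), chaperones and stress proteins 12 of 133 (9.02%), and kinases and phosphatases 41 of 428 (9.58%), all near the share of all genes. The last list also holds enzymes of metabolism by its words, and its 2 best covered members were PGK1, a phosphoglycerate kinase, at 106 nt from 5333 reads and SBPASE, an enzyme of the Calvin cycle, at 99 nt from 726 reads. J8, a chloroplast DnaJ protein, had 73.6% of its 625 reads at 90 nt. Cell wall and secreted proteins had 28 of 204 (13.7%, interval 9.32 to 19.2%) and pentatricopeptide and tetratricopeptide repeat proteins 13 of 86 (15.1%, 8.30 to 24.5%). SAUR and other auxin genes had 10 of 52 (19.2%, 9.63 to 32.5%). These 3 intervals include the 10.8% of all genes. Genes described as hypothetical, of unknown function or as transmembrane proteins had 93 of 570 (16.3%, 13.4 to 19.6%). SAUR24, an auxin-responsive gene of cell expansion, had 88.3% of 213 reads at 103 nt, and AFB3, an auxin receptor, had 51.9% of 77 reads at 70 nt. FLU, which restrains chlorophyll synthesis and is counted with the repeat proteins, ended at its annotated end of 104 nt in 61.2% of 98 reads. Cytochrome P450 genes, looked up after their values were seen, had 16 members of 53 (30.2%), from CYP72A13 at 43 nt to CYP71B34 at 109 nt.

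**Figure D3:**
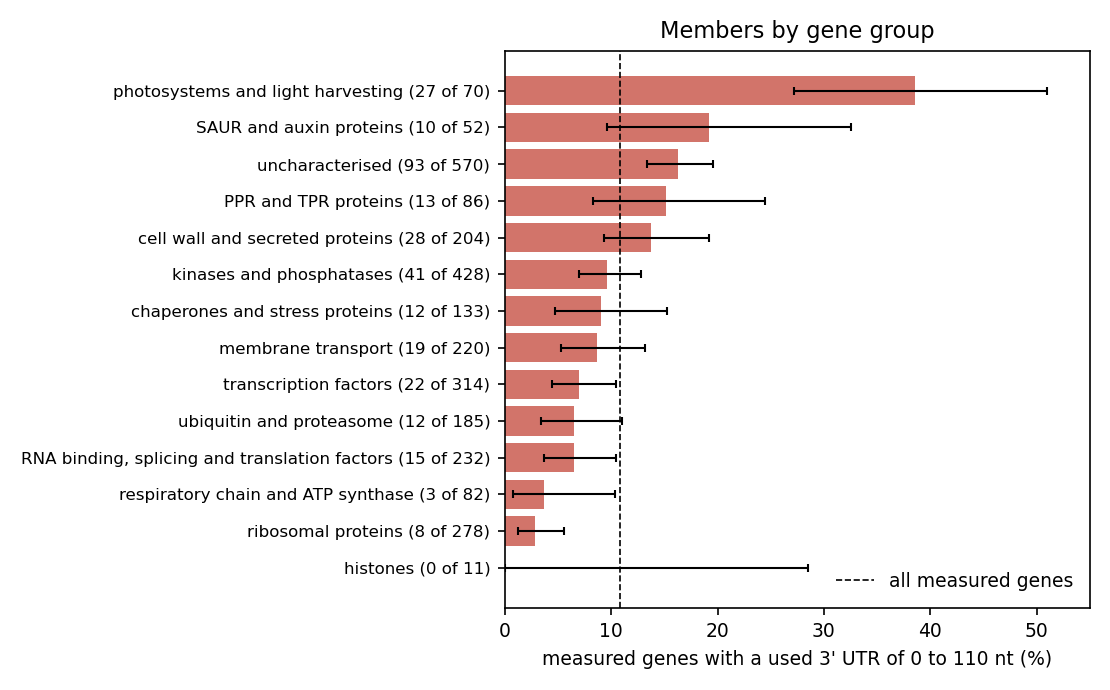
Share of the measured genes of each word group, in percent, whose used 3′-UTR was 0 to 110 nt, with 95% Clopper-Pearson intervals as whiskers and the share of all measured genes, 10.8%, as a dashed line. The photosystem list stands highest at 38.6% and the ribosomal list at 2.88%.

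The shortest members were a mixed set. AT4G15690, a thioredoxin superfamily gene, had a median of 4 nt from 144 reads, of which 70.1% ended there, 7.64% at 48 nt and 5.56% at 61 nt. AT3G45210 had 82.5% of 126 reads at 5 nt, and AT1G17620, a gene of a hydroxyproline-rich glycoprotein family, had 89.5% of 371 reads at 7 nt. In these 3 genes at least 7 in 10 reads shared a single position. After it the genome went on with at least 7 A among the next 10 bases, an A-rich stretch as defined below. The sites of AT4G01935 and AT5G43560 were also sharp, with 93.4% of 305 reads and 83.1% of 65 reads at 11 nt, but few reads aligned with a mapping quality of 10 or more (0 and 6.15%). PUB23, a U-box ubiquitin ligase that damps immune responses, had 77.1% of 349 reads at 19 nt and a second end at 246 nt, its annotated end, with 9.46%. CDA1, a cytidine deaminase gene, had 66.7% of 30 reads at 19 nt, also right before an A-rich stretch. ALS3, a gene of aluminium tolerance, had 20 of 21 reads at 14 nt, but the annotated 3′-UTR of that transcript is 15 nt long and reads aligned to it could not have ended further on. CAF1b, which encodes a deadenylase that shortens poly(A) tails and was named here after its value was seen, had 640 reads and a median of 44 nt.

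An A-rich stretch in the genome right after the end was more frequent toward the stop codon. This was defined as at least 7 A among the next 10 bases or 6 A in a row, and it was found in 8 of the 27 members below 30 nt (29.6%), 16.7% from 30 to 59 nt, 13.4% from 60 to 89 nt and 10.9% from 90 to 110 nt. Over all members it was 113 genes (13.1%, interval 10.9 to 15.6%), beside 7.45% of the other genes. Oligo(dT) can bind such stretches, and trimming can shorten reads there. Their part in the short lengths was not tested.

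In most members the annotation goes on far past the used end. The annotated 3′-UTR of the chosen transcript had a median of 205 nt in the members (quartiles 150 and 280 nt) and 300 nt in the other genes. The stretch between the used and the annotated end had a median of 120 nt in the members and 92 nt in the others, and the used part was 41.3 and 68.0% of the annotated length. Both contrasts contain the used length that the rule selected on, so they follow in part from the rule and are a description. Only 85 members (9.87%) had an annotated 3′-UTR of at most 110 nt. For 776 members, therefore, the annotation alone would not have placed them inside the limits. Used and annotated length had a Spearman correlation of 0.14 across the 861 members and 0.53 across the other genes, a description only, since the limit cuts the range of the members and genes are not replicates. The longest unused stretches were in AT2G07718, AK3, an aspartate kinase gene, and LTP, a lipid transfer protein gene, whose annotated 3′-UTRs were 3279, 3027 and 2290 nt long and whose medians were 62, 103 and 67 nt. Reads were aligned to annotated transcripts, so an end past the annotated one was nearly out of reach, and 120 members (13.9%) had the 95th percentile of their reads within 2 nt of the annotated end, against 14.3% of the other genes.

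**Figure D4:**
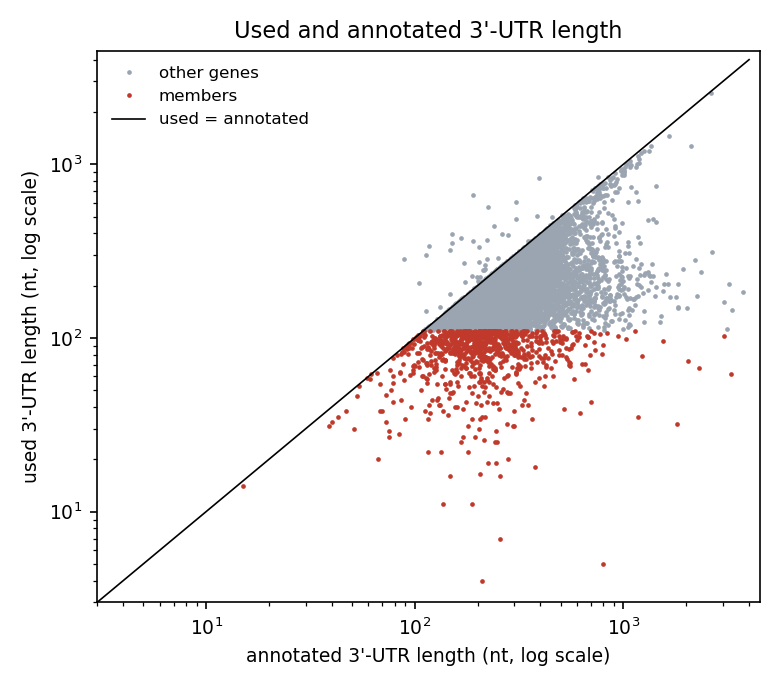
Used against annotated 3′-UTR length of each gene, in nt on log scales, with members in red, other genes in grey and the line where both are equal. Most members lie well below the line, with a median annotated length of 205 nt and a median used length of 88 nt.

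A median inside the limits does not mean that every read was inside. Per member, a median of 81.2% of the reads ended between 0 and 110 nt, 301 members had 90% or more there and 130 had all of them there. Pooled over the members, 21.7% of the reads ended beyond 110 nt, and 342 members had at least 25% of their reads beyond it. In 12 members fewer than 50% of the reads lay inside, and there the median fell between separate sites. The clearest was ADG1, the small subunit of ADP-glucose pyrophosphorylase in starch synthesis. Of its 447 reads, 213 (47.7%) ended 63 nt before the end of the stop codon, inside the coding sequence, while 12.8% ended at 143 nt and 11% at 236 nt, and only 6.26% lay inside the limits. AT4G01460 and AT2G07718 were alike in this, with 7.41 and 27.7% of the reads inside.

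A few members had many reads upstream of the stop codon. AT4G32870 had 48.9% of 45 reads at -24 nt, that is, within the last codons, and 24.4% at 77 nt. In the bZIP transcription factor genes bZIP1 and bZIP2, whose leaders are known for an upstream reading frame that responds to sucrose, some reads ended before the start codon. Those were 14.6% of the 212 reads of bZIP2 at -858 nt and 11.8% of the 110 reads of bZIP1 at -652 nt. AT5G54980 had 25.3% of 269 reads at -631 nt in its 5′-UTR and 13.8% at 7 nt. Over all members, 1103 reads (0.364%, interval 0.343 to 0.387%) ended before the last base of the stop codon, and 130 members had such a read. The share was 2.74% in members below 30 nt, 1.81% from 30 to 59 nt, 0.598% from 60 to 89 nt and 0.0916% from 90 to 110 nt, beside 0.131% in the 7072 genes above the limit. The length classes are set by the median of the same read ends, so the rise toward the stop codon follows in part from the classes. These shares pool reads, so a few genes weigh heavily in them. AT5G54980 is among the members below 30 nt, and only 11 of those 27 had such a read. Per member, the median share was 0%. All other genes together had 1.46%, but these include the 60 genes with a median before the end of the stop codon. With identical reads counted once, the share over the members was 1.28%, beside 0.700% in the other genes. The direction of this contrast with all other genes therefore changed when repeated reads were counted once. It also depended on the comparison genes, since with all reads the members had 0.364% against 0.131% in the genes above the limit.

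The median share of reads within 10 nt of the most used end was 60% (interval 57.1 to 62.1%) in the members and 53.3% in the others, with a median of 11 and 13 distinct ends per gene. The most used end alone took 39.8 and 33.6% of the reads. These values come from the same read ends whose median the rule limited, so the contrasts can follow in part from the rule and are a description. The most used end was inside the limits in 801 of the 861 members, beyond them in 53 and before the stop codon in 7. Among members with 100 or more reads, the sharpest included AT2G21820, a seed maturation protein gene with 98.0% of 102 reads at 96 nt, AT3G62550 with 95% of 539 reads at 92 nt, and ERF-1, an ethylene response factor gene with 51.9% of 135 reads at 77 nt and 36.3% at 79 nt. At the other extreme, CYP72A11 had its reads spread over 2 regions, with a median of 78 nt from 117 reads and its most used end, 12.8% of the reads, at 443 nt. For genes chosen by their most used end in place of the median, the share within 10 nt was 54.4%, against 53.8% in the rest.

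The bases around the end were like those of other genes in outline. The motif AATAAA, searched on the sense strand in the 40 nt up to the most used end, was found in 148 members (17.2%, interval 14.7 to 19.9%) and in 879 of the other genes (12.3%, interval 11.6 to 13.1%). It was in 11.1% of the members below 30 nt, 19.4% from 30 to 59 nt, 20.7% from 60 to 89 nt and 14.3% from 90 to 110 nt. Where found, it began a median of 21 nt before the end in both, with quartiles of 18 and 25 nt in the members. In 144 of the 148 members the motif lay wholly after the stop codon. In 4 it lay across the stop codon, as printed above, and in 0 within the coding sequence. The 40 nt cannot reach the coding sequence where the most used end lies 40 nt or more after the stop codon. These counts therefore follow largely from the window and are a description. Adenine peaked in 48.3% of the members 18 nt before the end, against 44.3% of the other genes there. Thymine was highest close to the end, in 54.7% of the members 7 nt before it, against 57.1% of the other genes. The 40 nt had a median A+T content of 72.5% in the members and 70.0% in the others, and the used 3′-UTR 70.7 and 66.8%.

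**Figure D5:**
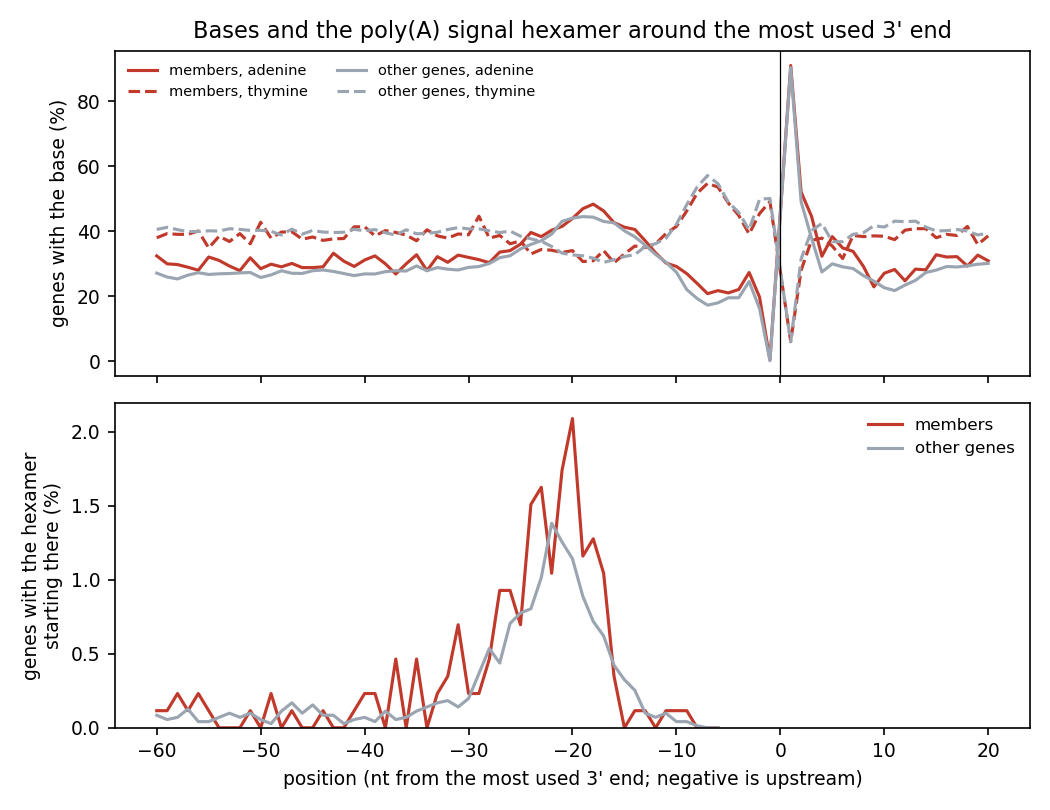
Upper panel, share of genes in percent with adenine (solid) or thymine (dashed) at each position, in nt from the most used 3′ end, for members (red) and other genes (grey). Lower panel, share of genes in percent in which the hexamer begins at each position. Adenine peaks near 18 nt upstream in both, higher in the members (48.3%), and the hexamer begins at a median of 21 nt upstream in both.

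The stop codon itself lies within the reach of these elements in the shortest members, and its identity varied with length. TAA was the stop codon of 354 members (41.1%, interval 37.8 to 44.5%), beside 34.9% (33.8 to 36.0%) of the other genes, TGA of 38.4 and 46.3%, and TAG of 20.4 and 18.8%. TAA was the stop codon in 13 of the 27 members below 30 nt (48.1%), 51.9% from 30 to 59 nt, 42.4% from 60 to 89 nt and 37.0% from 90 to 110 nt. Beyond the limit it was 35.9% from 111 to 199 nt and 33.5% from 200 to 299 nt. Whether the stop codon share goes with the base composition around it was not tested.

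The structure of the genes differed in part. The coding length was a median of 912 nt (interval 861 to 972 nt) in the members and 948 nt (933 to 966 nt) in the others, so the intervals overlapped. The members had a median of 3 exons and the others of 4, and 218 members (25.3%) had no intron, beside 14.5%. A single coding transcript was annotated for 74.6% of the members and 61.5% of the others. An exon junction after the stop codon was annotated in 4 members (0.465%) and in 4.78% of the others, and a longer 3′-UTR has more room for one. The members were spread over the chromosomes, from 10.3% of the measured genes of chromosome 5 to 11.7% of chromosome 3.

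Members often had another gene close by on the opposite strand. The next protein-coding gene downstream lay a median of 327 nt (interval 268 to 393 nt) from the most used end in the members and 413 nt (386 to 439 nt) in the others. It was on the opposite strand for 54.4 and 48.5%. The most used end lay inside an annotated protein-coding gene of the opposite strand in 137 members (15.9%, interval 13.5 to 18.5%) and in 10.8% of the others. Where 2 transcripts overlap, an aligned read can be listed under either, so such genes can lose reads to their neighbour.

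Some reads of the members were listed elsewhere and not used by the rule. In 139 members, other coding transcripts of the gene held at least 20 reads (27990 in all), and the median of those reads, placed on the genome and measured from the stop codon of the chosen transcript, was inside the limits in 134 and within 5 nt of the first value in 112. An aligner splits reads that fit several transcripts among them, so these can be the same ends and are no independent measure. For LHCB2.3 they were 1916 reads with a median of 67 nt. Reads of 63 members (17488) were listed as antisense to an overlapping gene, and their median was inside the limits in 45 and outside in 18, and within 5 nt of the first value in 36. LHCB2.3 had 1067 such reads with a median of 67 nt and LHCB3 had 7888 with a median of 87 nt. Such reads can only end where the neighbour's transcript lies, so sites nearer to the stop codon can be missed, as in LHCB6, where 400 such reads had a median of 210 nt. All these reads come from the same library and are no replicate.

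Placement was mostly unambiguous within the nuclear chromosomes, and copies in the plastid and mitochondrial genomes were not searched. The 30 nt before the most used end occurred once in the 5 nuclear chromosomes for 855 of the 861 members, and 6 had further copies, among them SAUR19, SAUR24 and MT1B. A mapping quality of at least 10 was reached by 87.5% of the members' reads and by 73.3% of those of the other genes, but 144 members (16.7%) had no such read, of which 120 have several coding transcripts. The 3 genes of the study's title proteins were not members: AtPAB2 had a median of 156 nt from 828 reads, AtPAB4 of 179 nt from 90 and AtPAB8 of 193 nt from 36.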

How the data were processed

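Per the methods, the authors used first-end reads whose adaptor could be recognized, cut off random bases, adaptor and tail, and aligned what was left to TAIR10 with Bowtie2, with duplicate removal not stated for this library. A tail was read as a run of A that may hold some G, so genomic A or G next to the cut can be trimmed with it. The deposited table has 2786281 reads, each with its transcript, both positions, the strand and the aligner's mapping quality, a score from 0 to 42 that the authors left unchanged. Tail bases are not in it, and 30 further samples were not analysed here. The build of the transcript sequences is not given in the sources used here, so positions were placed through transcripts of the same name in the RefSeq TAIR10.1 annotation, and 2627416 plus reads lay on annotated coding transcripts of 18095 genes.

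The 3′ end was the last aligned base, and lengths were counted from the last base of the annotated stop codon. Minimum depth was 20 reads per transcript. Reads repeating transcript, start, end and strand made up 71.6% of all reads and 83.2% of the members' reads, so Clopper-Pearson and order-statistic intervals (95%) cover counting error only. With 1 library, no test was made. Length, membership and placement were tested on simulated reads that lay at or next to 1 true end per transcript. That checks the computation and does not cover genes with several separate ends. Gene groups were made from words in gene descriptions. The genes named were drawn from the 12 members with the most reads, the 12 shortest, those next to the limits, the 2 best covered of each group, the 6 with the longest unused annotation, the 6 with the most reads before the stop codon, the 5 sharpest and 5 widest of 100 or more reads, and AtPAB2, AtPAB4 and AtPAB8, and not every gene these give is named. Genes outside this rule (LHCA1, LHCB4.2, LHCB4.3, LHCB2.3, PSAE-2, PSAD-1, PSBO2, TLP18.3, the LHCB1 genes, LHCA2 to LHCA4, PSAG, PSAL, PSAH-1, PSAH2, PRPL11, RPL27AB, GAMMA-H2AX, CAF1b, the genes with AATAAA over the stop codon, SAUR19, MT1B, and the NDH and P450 genes) were chosen after their values were seen. The members and lists were chosen with earlier results of these data known. Alternatives changed mapping quality, duplicates, depth, transcript choice, the median, windows and the limit. Computations used pandas 2.3.3, scipy 1.17.1 and numpy 2.4.6 under Python 3.11.15, and figures matplotlib 3.10.9.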

Additional observations from a re-analysis of the deposited data

Results flagged for a closer look

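Reads listed on the minus strand of the chosen transcripts were outside the measurements above, and the members had 4245 of them. That was 1.38% of the reads on these transcripts, beside 13729 reads (0.803%) in the other 7132 genes. Of the members, 119 (13.8%) had more than 3 such reads, the limit that a count of 0 allows, beside 518 of the other genes (7.26%). IAGLU, an auxin glucosyltransferase gene, had 1058 against 102 plus reads, AT5G13520 had 331 against 89, AT2G42690 had 220 against 108 and EMB3123 had 170 against 26.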

How the results depend on the processing

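Over 8 results and their alternatives, 78 values were computed, of which 59 stayed within the interval of the value above (or, for the number of members, within 1.5 times) and 19 moved. The number of members (861) was 494 with identical reads counted once, 459 with a minimum of 50 reads, 461 with the limit 20 nt lower and 1560 with it 20 nt higher. Counted once, identical reads left 470 of the first members, and the most used end in place of the median left 801 among 1015. With identical reads counted once, the share of reads before the end of the stop codon was 1.28%, now above the 0.700% of the other genes. The share near the most used end was then 50%, the TAA share 44.5% and the coding length 838.5 nt. With the most used end, the annotated length was 215 nt, the share before the stop codon 0.168% and the share near the end 54.4%. The share before the stop codon was 0.322% with a minimum of 50 reads, 0.393% with 10 and 0.451% with reads pooled over transcripts. Without genes with an A-rich stretch, an alternative chosen after seeing the data, it was 0.331%. Coding length was 837 nt with a minimum of 50 reads and 993 nt with 10. Within 5 nt of the most used end the share was 52.4%, and within 20 nt 71.4%. The causes were not tested. In the 20 alternatives for AATAAA and TAA, the share stayed higher in the members than in the other genes in all 20. The members with 20 to 49 reads (402 genes) rest on few reads each, which limits how closely their median is placed. No paired analysis was possible because only 1 library was analysed.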
